A study of Arabidopsis thaliana with 27 samples.

Results

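The comparison described here set cotyledons of NAE 18:3-treated Arabidopsis seedlings against cotyledons of seedlings given the solvent, and its members were the 3 NAE 18:3 cotyledon libraries and the 3 DMSO cotyledon libraries, 6 of the 27 libraries of the study, read across every gene of the count table. All seedlings were Col-0 wild type, 3 days old, grown in shaken liquid medium and treated whole in dishes, after which the organs were cut apart. NAE 18:3 was given at 70 µM per the sample labels and the methods of the study (80 µM in the text of the series), for 1 h per the labels and up to 3 h in the methods, and controls received 0.2% DMSO. Each library came from the cotyledons of a pooled group of seedlings, so a value is an average over many plants and over every cell type of the cotyledon, and the methods call the 3 libraries of a group biological replicates. In such bulk tissue a change in the number of cells of a type and a change of RNA per cell cannot be told apart.

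NAEs (N-acylethanolamines) are ethanolamides of fatty acids. They are released from N-acylated membrane phospholipids by phospholipase D activity, are plentiful in dry seeds and are drawn down as seedlings establish, when fatty acid amide hydrolase (FAAH) cleaves them and lipoxygenases oxidise the polyunsaturated species. NAE 18:3 carries linolenic acid. Seedlings kept in polyunsaturated NAEs grow poorly, and the study asked which transcripts change early in each organ, before any effect on growth or greening can be seen.

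The cotyledon libraries held between 26305279 and 29634056 counts under NAE 18:3 and between 23932702 and 28288622 under DMSO. The tissue was checked against marker genes. The 12 mesophyll markers, light-harvesting and Rubisco genes among them, summed to between 91492 and 94542 CPM (counts relative to the total of each library, scaled between libraries by TMM factors) in NAE 18:3 cotyledons and between 77618 and 97436 CPM in DMSO cotyledons, against between 58.6 and 1130 CPM in NAE 18:3 roots and between 48 and 80.4 CPM in DMSO roots, and none of them was called changed or had an unadjusted p under 0.05. Of 32 root marker genes, 4 were at 0 in every NAE 18:3 cotyledon library (BGLU34, COBL9, RHS12, RSL4) and 3 in every DMSO cotyledon library (BGLU34, PLT2, RSL4). The summed root markers ran from 2285 to 3730 CPM under NAE 18:3 and from 3225 to 3634 CPM under DMSO. In roots the same sum ran from 3577 to 4772 CPM under NAE 18:3, which overlapped the NAE 18:3 cotyledons, and from 5999 to 9736 CPM under DMSO, so this list separated the organs less than the mesophyll markers did. The 9 shoot apex markers summed to between 10.2 and 20.8 CPM under NAE 18:3 and between 18.5 and 30.5 CPM under DMSO, with WUS at 0 in all 3 NAE 18:3 libraries, and the 11 guard cell markers to between 113 and 126 CPM and between 108 and 149 CPM. DMSO replicate 3 stood apart from its group. On the second principal component of the 9 cotyledon libraries, which held 16.8% of the variance, it lay at -38.0, against 1.28 and -8.31 for the other DMSO libraries, while the first component (61.6%) separated NAE 18:3 from DMSO. It was the highest DMSO library for 720 of the 1231 genes that NAE 18:3 increased (58.5%), against 38.3% of the genes not called. Leaving it out gave 1391 increased and 532 reduced genes in place of 1231 and 484.

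NAE 18:3 changed 1715 of the 19444 genes tested in cotyledons (8.82%). Transcripts of 1231 genes increased (6.33%) and those of 484 genes were reduced (2.49%), at a Benjamini-Hochberg adjusted p under 0.01 and a fold change over 2 in edgeR. Increases were also the larger changes. By fitted values 613 increased genes exceeded 4-fold, 312 exceeded 8-fold and 85 exceeded 32-fold, while 71 reduced genes exceeded 4-fold, 10 exceeded 8-fold and none exceeded 32-fold. The median log2 fold change was 1.99 over the increased genes, -1.33 over the reduced genes and -0.02 over all genes tested, 47.7% of which had a positive value. In all 1231 increased and all 484 reduced genes the 3 NAE 18:3 values lay on one side of the 3 DMSO values, as they did for 22.7% of all tested genes in the upward and 22.9% in the downward direction. DMSO cotyledons were at the counting floor, with no library over 3 counts, for 66 of the increased genes, and NAE 18:3 cotyledons for 4 of the reduced genes. Fitted values of these genes depend on a small added count. With each of them set to the smallest fold its floor allows, 612, 288 and 53 increased genes exceeded 4, 8 and 32-fold and the medians were 1.99 and -1.33. The count of reduced genes was the less stable of the pair, being 281 without NAE 18:3 replicate 1, 308 without NAE 18:3 replicate 2 and 319 without DMSO replicate 2.

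**Figure D1:**
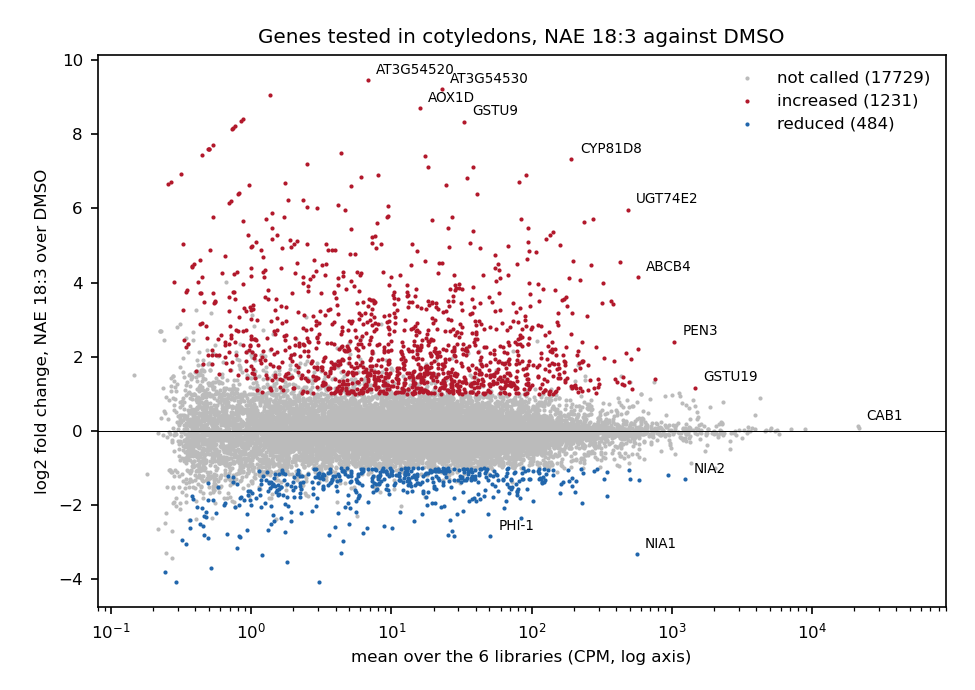
Each point is 1 of the 19444 genes tested in cotyledons, with the mean of the 6 libraries in CPM on a log axis (horizontal) and the log2 fold change of NAE 18:3 over DMSO (vertical). Red marks the 1231 increased and blue the 484 reduced genes; fitted increases reach 9.45 and reductions -4.07, and CAB1, a light-harvesting protein gene among the points with the highest CPM, lies near 0.

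Among increased genes averaging at least 5 CPM, the largest changes were of genes hardly detected under DMSO. AT3G54520 and AT3G54530, neighbouring genes for uncharacterized proteins at chr3:20183517-20185202 and chr3:20185966-20187637, led the list. AT3G54530 had 52.4, 40.9 and 43.5 CPM in NAE 18:3 cotyledons, against 0, 0.094 and 0.124 CPM in DMSO cotyledons, at least 355-fold higher by the floor of 3 counts. AT3G54520 had 16.2, 12.2 and 12.3 CPM in NAE 18:3 cotyledons, against 0, 0.047 and 0 CPM in DMSO cotyledons, at least 106-fold higher, and its reads may include some of the gene that overlaps it on the other strand, AT3G54510. AOX1D, an alternative oxidase of mitochondria, had 43, 27.5 and 24.8 CPM in NAE 18:3 cotyledons, against 0.121, 0 and 0.0828 CPM in DMSO cotyledons, at least 247-fold higher. The groups were far apart for all of these genes, and within NAE 18:3 replicate 1 was the highest library.

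GSTU9, a tau class glutathione transferase, had 76.2, 64.7 and 57.3 CPM in NAE 18:3 cotyledons, against 0.121, 0.094 and 0.373 CPM in DMSO cotyledons (log2 fold change 8.33 ± 0.53 (SE), edgeR adjusted p = 1.72e-05). CYP81D8, a cytochrome P450 of the family most used as a marker of chemical stress, had 421, 342 and 385 CPM in NAE 18:3 cotyledons, against 1.61, 2.07 and 3.39 CPM in DMSO cotyledons (log2 fold change 7.33 ± 0.51 (SE), edgeR adjusted p = 2.36e-05). The F-box gene AT5G55150 had 40.8, 34.5 and 29 CPM in NAE 18:3 cotyledons, against 0.241, 0.094 and 0.248 CPM in DMSO cotyledons (log2 fold change 7.41 ± 0.55 (SE), edgeR adjusted p = 3.06e-05). No NAE 18:3 library came near a DMSO library for these transcripts. AT4G12735, whose product is uncharacterized, had 90.0, 73.6 and 65 CPM in NAE 18:3 cotyledons, against 0.402, 0.329 and 0.869 CPM in DMSO cotyledons (log2 fold change 7.12 ± 0.50 (SE), edgeR adjusted p = 2.67e-05). SBT3.3, a subtilase known for its part in immune priming, had 39.6, 39.7 and 29.8 CPM in NAE 18:3 cotyledons, against 0.322, 0.047 and 0.373 CPM in DMSO cotyledons (log2 fold change 7.12 ± 0.41 (SE), edgeR adjusted p = 1.18e-05), in a locus that overlaps AT1G32970 on the other strand. DMSO replicate 3 was the highest control for GSTU9, CYP81D8, AT5G55150, AT4G12735 and SBT3.3.

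Among the increased genes, those with the widest differences in mean CPM were transporters and conjugating enzymes. PEN3, a plasma membrane ABC transporter that exports defence compounds and auxin precursors, had 1731, 1869.7 and 1621 CPM in NAE 18:3 cotyledons, against 310.5, 297 and 373 CPM in DMSO cotyledons (log2 fold change 2.41 ± 0.14 (SE), edgeR adjusted p = 1.15e-05). ABCB4, an ABC transporter that carries auxin, had 1138, 1213 and 901 CPM in NAE 18:3 cotyledons, against 53.7, 42.8 and 87 CPM in DMSO cotyledons (log2 fold change 4.14 ± 0.40 (SE), edgeR adjusted p = 1.07e-04), some of which may come from genes that overlap it on either strand. UGT74E2, which glucosylates indole-3-butyric acid, had 1079.8, 903 and 891 CPM in NAE 18:3 cotyledons, against 2.77, 3.9 and 38.9 CPM in DMSO cotyledons (log2 fold change 5.96 ± 0.99 (SE), edgeR adjusted p = 0.00187), and here DMSO replicate 3 was far above the other controls while remaining far under every NAE 18:3 library. GSTU19 had 2124, 2215 and 1718 CPM in NAE 18:3 cotyledons, against 780.2, 708 and 1200.4 CPM in DMSO cotyledons (log2 fold change 1.17 ± 0.20 (SE), edgeR adjusted p = 0.00218). This was a smaller change, whose call was lost without DMSO replicate 1 or NAE 18:3 replicate 1 or 2 (log2 fold change 1.02 to 1.45, adjusted p up to 0.0112, edgeR).

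Among reduced genes averaging at least 5 CPM, the largest changes included enzymes and growth genes. NIA1, a nitrate reductase, had 82, 89.7 and 139 CPM in NAE 18:3 cotyledons, against 879, 1171 and 1014 CPM in DMSO cotyledons (log2 fold change -3.31 ± 0.36 (SE), edgeR adjusted p = 1.94e-04). PHI-1, a member of the EXORDIUM family linked to cell expansion, had 13.1, 14 and 10.2 CPM in NAE 18:3 cotyledons, against 112, 102 and 53.2 CPM in DMSO cotyledons (log2 fold change -2.84 ± 0.32 (SE), edgeR adjusted p = 2.22e-04). EXLA1 and EXLA2, expansin-like proteins of the wall, had 6.5, 6.25 and 6.36 CPM against 45.5, 52.3 and 34.6 CPM and 6.91, 7.08 and 7.78 CPM against 45.6, 49.8 and 44.7 CPM. Every NAE 18:3 library was under every DMSO library by several fold, although DMSO replicate 3 was the lowest control for PHI-1 and EXLA1. XTH33, a xyloglucan endotransglucosylase, had 1.48, 2.1 and 2.06 CPM in NAE 18:3 cotyledons, against 12, 10.3 and 12.2 CPM in DMSO cotyledons (log2 fold change -2.61 ± 0.31 (SE), edgeR adjusted p = 3.03e-04). The remaining leading genes were AT4G29905, of unknown function (-2.83), the TIP41-like gene AT3G54000 (-2.74) and the hydrolase gene AT5G41900 (-2.6), given as log2 fold changes.

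**Figure D2:**
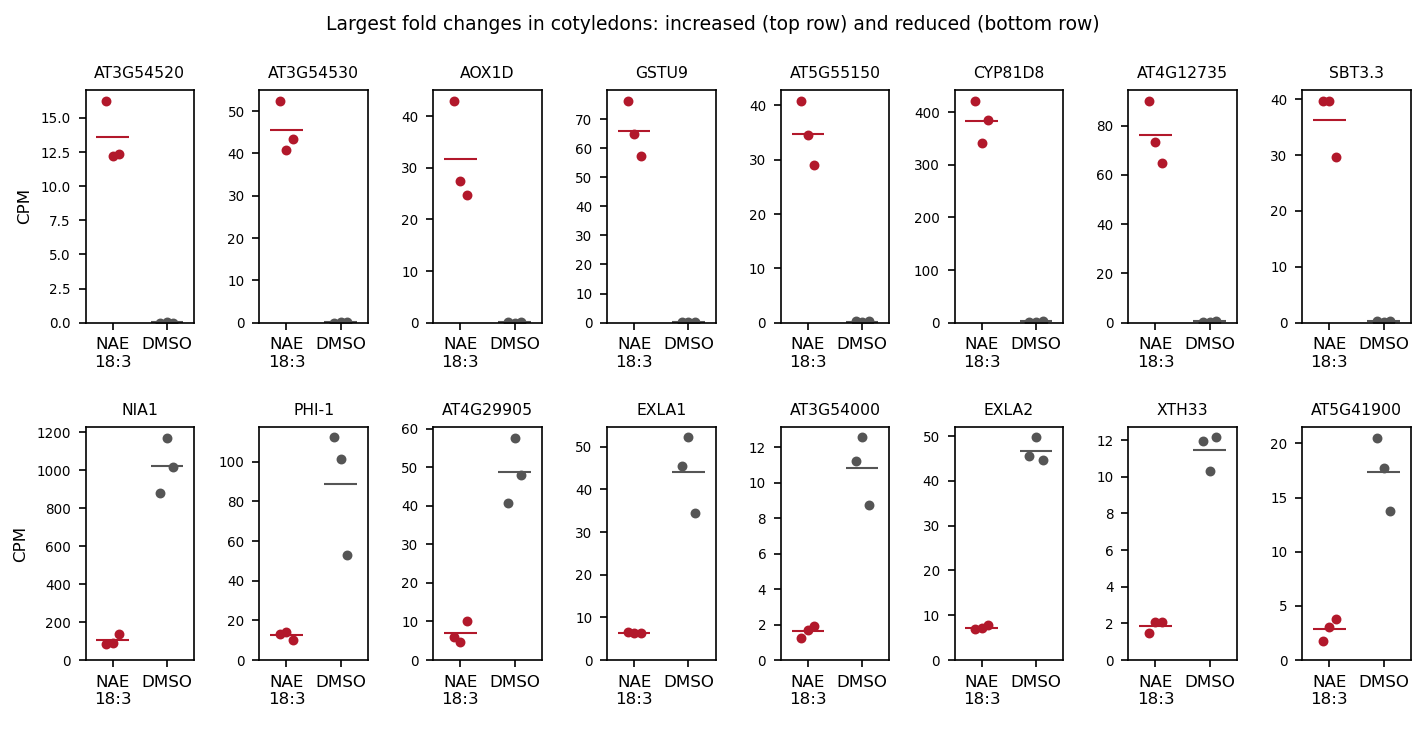
Level in CPM of the 8 increased genes (top) and 8 reduced genes (bottom) with the largest fold changes among called genes averaging at least 5 CPM, with NAE 18:3 on the left and DMSO on the right of each panel; points are libraries (n = 3 each) and lines are means. CYP81D8 lies between 342 and 421 CPM under NAE 18:3 and at most 3.39 CPM under DMSO, and NIA1 between 82.0 and 139 CPM against 879 to 1171 CPM.

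Many detoxification genes increased. Counts of called list members, here and below, are to be read beside the 6.33% of all tested genes increased and 2.49% reduced. Plants handle foreign lipophilic molecules by oxidising them with P450s, joining them to glutathione or glucose, and passing the products through ABC and MATE transporters. All 8 tested UGT73B and UGT73C glucosyltransferases increased, with a median log2 fold change of 4.05 against -0.02 over all genes. UGT73C5, which glucosylates brassinosteroids and fungal toxins, had 564, 502 and 464 CPM in NAE 18:3 cotyledons, against 13.5, 14.8 and 39.9 CPM in DMSO cotyledons (log2 fold change 4.48 ± 0.49 (SE), edgeR adjusted p = 1.95e-04). UGT73B4 had 197, 186 and 167 CPM in NAE 18:3 cotyledons, against 2.77, 3.1 and 9.97 CPM in DMSO cotyledons (log2 fold change 5.1 ± 0.56 (SE), edgeR adjusted p = 2.02e-04), and it overlaps UGT73B5 (4.49) on the same strand, so their counts may be shared. The weakest member, UGT73C7, had 7.49, 6.25 and 7.91 CPM against 2.65, 2.73 and 2.07 CPM (log2 fold change 1.53), and its call was lost with all 27 libraries in 9 groups.

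Of 32 tau and phi glutathione transferases tested, 14 increased and none was reduced (median 0.89), against 6.33% and 2.49% of all genes. GSTU25 had 207, 191 and 159 CPM in NAE 18:3 cotyledons, against 3.34, 4.23 and 11.5 CPM in DMSO cotyledons (log2 fold change 4.86 ± 0.54 (SE), edgeR adjusted p = 2.15e-04). GSTU24, an enzyme able to conjugate explosives such as TNT, had 256, 216 and 159 CPM in NAE 18:3 cotyledons, against 9.85, 8.79 and 21.9 CPM in DMSO cotyledons (log2 fold change 3.95 ± 0.46 (SE), edgeR adjusted p = 2.81e-04). The phi class GSTF7, a gene of pathogen responses, had 340.3, 340.1 and 298 CPM in NAE 18:3 cotyledons, against 49.7, 42.7 and 67.1 CPM in DMSO cotyledons (log2 fold change 2.61 ± 0.30 (SE), edgeR adjusted p = 2.51e-04). DMSO replicate 3 was again the highest control in GSTU24, GSTU25 and GSTF7, and all of its values lay well under NAE 18:3. Not every family member moved: the tau and phi genes ran from a log2 fold change of -0.95 to 8.33.

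Of 13 further genes of the xenobiotic response, reductases, P450s, transporters and regulators, 8 increased (median 1.84), against 6.33% of all genes. ABCG40, a transporter that takes up abscisic acid, had 506, 514 and 367 CPM in NAE 18:3 cotyledons, against 7.44, 7.85 and 12.8 CPM in DMSO cotyledons (log2 fold change 5.62 ± 0.44 (SE), edgeR adjusted p = 3.73e-05). CYP81D11, a P450 that cis-jasmone and other chemicals induce, had 194, 213 and 219 CPM in NAE 18:3 cotyledons, against 5.07, 5.97 and 11.1 CPM in DMSO cotyledons (log2 fold change 4.81 ± 0.29 (SE), edgeR adjusted p = 1.32e-05). OPR1, a reductase of the old yellow enzyme family that acts on oxylipins and foreign compounds, had 774, 711 and 598 CPM in NAE 18:3 cotyledons, against 56.7, 45.6 and 91.7 CPM in DMSO cotyledons (log2 fold change 3.42 ± 0.40 (SE), edgeR adjusted p = 2.72e-04). The values for 2 regulators known to act upstream of such genes were closer together. The transcription factor TGA6 had 5.34, 6.41 and 6.84 CPM against 5.31, 5.17 and 6.42 CPM (log2 fold change 0.13, edgeR adjusted p = 0.554). The GRAS protein SCL14 had 44.6, 42.9 and 39.6 CPM against 25.9, 30.3 and 28.8 CPM (log2 fold change 0.57, edgeR adjusted p = 0.00121), past the significance threshold but under 2-fold. SOT12, a sulfotransferase that acts on salicylic acid and brassinosteroids, had 928, 845 and 694 CPM in NAE 18:3 cotyledons, against 22.9, 22.9 and 58 CPM in DMSO cotyledons (log2 fold change 4.56 ± 0.50 (SE), edgeR adjusted p = 1.92e-04).

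MATE transporters, which export toxins and metabolites, were called higher in 12 of 42 tested genes and lower in 2 (median 0.42), against 6.33% and 2.49% of all genes. DTX1, which exports plant alkaloids and other toxic compounds, had 519.9, 396 and 346 CPM in NAE 18:3 cotyledons, against 18.5, 22 and 33.9 CPM in DMSO cotyledons (log2 fold change 4.08 ± 0.33 (SE), edgeR adjusted p = 3.93e-05). Its neighbour AT2G04050 had 367, 252 and 169.6 CPM in NAE 18:3 cotyledons, against 7.4, 5.31 and 7.24 CPM in DMSO cotyledons (log2 fold change 5.29 ± 0.46 (SE), edgeR adjusted p = 5.94e-05). AT3G23550 had 25.3, 13 and 17.5 CPM in NAE 18:3 cotyledons, against 0.161, 0.282 and 0.538 CPM in DMSO cotyledons. For these transporters NAE 18:3 replicate 1 was the highest library and every DMSO library lay far below. The count of reduced MATE genes was 0 without NAE 18:3 replicate 2 and 1 without DMSO replicate 1 or 2 or NAE 18:3 replicate 1 or 3. DTX1 and AT3G23550 overlap genes on the other strand.

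Genes of a mitochondrial stress response rose along with detoxification genes. When the respiratory chain is blocked, plant mitochondria signal to the nucleus through membrane-bound NAC factors, NAC017 and NAC13 among them. These factors bind a short motif in the promoters of genes such as AOX1A. Of 12 genes of this response tested, 8 increased, against 6.33% of all genes, and none was reduced (median 2.83). In all 12 the NAE 18:3 libraries were above the DMSO libraries, against 22.7% of all genes. The list was chosen with earlier results of these data known, so these counts describe it and are no test. Some members are counted again in lists below. These are AOX1A and NDB2 (alternative oxidases and dehydrogenases), NAC13, NAC017 and NAC053 (stress NAC factors), and ERF71 and CRF6 (ERF genes). AOX1A, the main stress-inducible alternative oxidase, had 666, 621 and 540.2 CPM in NAE 18:3 cotyledons, against 20.3, 21.5 and 72.6 CPM in DMSO cotyledons (log2 fold change 3.99 ± 0.56 (SE), edgeR adjusted p = 7.39e-04). NAC13 had 191, 175 and 172 CPM in NAE 18:3 cotyledons, against 7.48, 7.19 and 19.2 CPM in DMSO cotyledons (log2 fold change 3.98 ± 0.45 (SE), edgeR adjusted p = 2.32e-04), and it overlaps AT1G32880 on the other strand. OM66, an outer membrane ATPase listed as BCS1, had 289, 263 and 257 CPM in NAE 18:3 cotyledons, against 34.3, 42.3 and 34.4 CPM in DMSO cotyledons (log2 fold change 2.86 ± 0.20 (SE), edgeR adjusted p = 2.60e-05). DMSO replicate 3 had the highest control value for AOX1A and NAC13, as it did for UGT74E2.

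NAC017, the membrane-anchored factor that is switched on by cleavage, differed little, with 57.3, 54.5 and 54 CPM in NAE 18:3 cotyledons, against 41.3, 40.0 and 41.7 CPM in DMSO cotyledons (log2 fold change 0.42 ± 0.07 (SE), edgeR adjusted p = 0.00134). Its difference passed the adjusted p threshold and was under 2-fold. AT2G21640, a marker of oxidative stress, had 212, 176 and 170.1 CPM in NAE 18:3 cotyledons, against 10.5, 13.3 and 78.5 CPM in DMSO cotyledons (log2 fold change 2.44, edgeR adjusted p = 0.023) and was not called. Its control values were unequal, and without DMSO replicate 3 its log2 fold change was 3.98 (edgeR adjusted p = 5.58e-05). ERF71, an ethylene response factor of low oxygen responses also called HRE2, had 175, 154 and 162 CPM in NAE 18:3 cotyledons, against 1.65, 1.27 and 6.25 CPM in DMSO cotyledons (log2 fold change 5.72 ± 0.54 (SE), edgeR adjusted p = 9.01e-05).

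Alternative oxidases and type II NAD(P)H dehydrogenases form a pathway that carries electrons around the proton-pumping complexes. Of 12 tested, 6 increased and none was reduced (median 1.89). NDB2, an external NADH dehydrogenase, had 74.2, 75.1 and 58.1 CPM in NAE 18:3 cotyledons, against 7.36, 7.85 and 17.3 CPM in DMSO cotyledons (log2 fold change 2.67 ± 0.36 (SE), edgeR adjusted p = 5.69e-04). The internal enzyme NDA2 had 42.6, 39.1 and 28.4 CPM in NAE 18:3 cotyledons, against 4.18, 5.12 and 7.08 CPM in DMSO cotyledons (log2 fold change 2.74 ± 0.24 (SE), edgeR adjusted p = 5.61e-05), and NDB4 had 9.37, 7.91 and 5.68 CPM against 1.01, 0.752 and 1.74 CPM (log2 fold change 2.69). AOX1B was low in both groups, with 0.987, 0.633 and 0.86 CPM in NAE 18:3 cotyledons, against 0, 0.047 and 0.0414 CPM in DMSO cotyledons, at least 6.43-fold higher under NAE 18:3. DMSO replicate 3 held the highest control value for NDA2, NDB2 and NDB4.

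A palindromic form of the motif bound by NAC017 and NAC13 was then looked for in promoters. The mitochondrial dysfunction motif was searched as CTTG and CAAG with any 5 bases between them, a pattern that is the same on both strands, in the 250 bases before the annotated start of each gene on TAIR10.1. It occurred in 104 of 19343 promoters of tested genes (0.538%), in 28 of the 1231 increased genes (2.27%), in 15 of the 312 increased over 8-fold (4.81%) and in 2 of the 484 reduced genes (0.413%). Of the 12 genes of the mitochondrial dysfunction list 2 held this form, NDB2 and AT2G21640, and it was not found in this window of AOX1A, NAC13 or OM66. Forms of the motif with other letters were not searched and may still be present there. Reading the 250 bases from 5′ to 3′ on the strand of the gene, with the motif in capitals, these promoters show where it lies in 4 genes of no mitochondrial list with large changes and in the dehydrogenase gene NDB2:
CYP81D8 (chr4:17571744-17571993, minus strand): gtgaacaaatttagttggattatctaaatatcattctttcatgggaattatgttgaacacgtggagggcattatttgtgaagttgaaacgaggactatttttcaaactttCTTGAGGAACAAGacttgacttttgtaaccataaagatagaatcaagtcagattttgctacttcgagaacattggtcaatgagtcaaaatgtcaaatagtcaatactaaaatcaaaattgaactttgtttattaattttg
AT5G55150 (chr5:22383393-22383642, minus strand): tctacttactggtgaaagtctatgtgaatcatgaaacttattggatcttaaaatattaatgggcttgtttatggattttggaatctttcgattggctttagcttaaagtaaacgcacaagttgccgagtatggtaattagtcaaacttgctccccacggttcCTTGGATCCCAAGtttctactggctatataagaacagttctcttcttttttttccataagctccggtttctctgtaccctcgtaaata
AT4G12735 (chr4:7494235-7494484, minus strand): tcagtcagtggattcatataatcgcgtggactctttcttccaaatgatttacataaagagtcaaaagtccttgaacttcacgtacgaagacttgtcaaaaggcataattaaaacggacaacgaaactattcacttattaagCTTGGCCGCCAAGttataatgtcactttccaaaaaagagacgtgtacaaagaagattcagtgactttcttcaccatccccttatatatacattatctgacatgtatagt
ABCB11 (chr1:523286-523535, plus strand): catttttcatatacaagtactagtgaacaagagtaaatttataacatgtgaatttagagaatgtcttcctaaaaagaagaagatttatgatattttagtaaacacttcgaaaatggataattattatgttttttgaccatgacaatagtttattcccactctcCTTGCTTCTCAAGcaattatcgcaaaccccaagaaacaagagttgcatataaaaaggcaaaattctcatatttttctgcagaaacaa
NDB2 (chr4:2572177-2572426, plus strand): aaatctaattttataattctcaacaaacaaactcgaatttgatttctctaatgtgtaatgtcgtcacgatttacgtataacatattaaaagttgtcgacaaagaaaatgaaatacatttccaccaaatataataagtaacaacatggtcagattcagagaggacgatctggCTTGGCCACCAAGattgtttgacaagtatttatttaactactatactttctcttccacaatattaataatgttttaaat

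The genes behind these promoters rose by different amounts. ABCB11, an ABC transporter of the P-glycoprotein type, had 211, 192 and 144 CPM in NAE 18:3 cotyledons, against 1.33, 1.13 and 2.11 CPM in DMSO cotyledons (log2 fold change 6.88 ± 0.36 (SE), edgeR adjusted p = 9.35e-06), and with NDB2 at a log2 fold change of 2.67 and AT5G55150 at 7.41 the printed set covers much of the range. AT5G24640, an uncharacterized gene that also holds a match, had 77.8, 66.7 and 60.0 CPM against 0.362, 0.235 and 1.16 CPM (log2 fold change 6.82). A match describes the sequence and does not show that a factor was bound, and genes with no match in this window, AOX1D and GSTU9 among them, rose as far. AT1G73066 and ATSUV3 were the reduced genes with a match. These genes were chosen for display after their values were seen.

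Other short motifs were counted in the same windows on both strands. The W-box core TTGAC, bound by WRKY factors, occurred in 60.2% of increased and 66% of over 8-fold increased genes, against 44.2% of reduced and 44.6% of all tested genes. Its longer form TTGACC, which contains the core and so counts within it, was in 19.1%, 24.7%, 11.4% and 12% of the same sets. The as-1 core TGACG, bound by TGA factors, was in 23.9%, 29.8%, 19% and 19.4%. Shares for the G-box CACGTG (7.72% of increased, 7.36% of all) and the CAMTA site CGCGT (7.8% and 7.62%) were close to those of all genes. The abscisic acid core ACGTGTC (5.61% and 4.25%) and the evening element AAATATCT (6.66% and 4.94%) were somewhat more frequent among increased genes. They were in 5.77% and 5.13% of genes increased over 8-fold. The heat shock element, GAA, TTC and GAA in that order with any 2 bases between neighbours, was rare, with 12 increased genes (0.975%) against 83 of all (0.429%). These shares are descriptions over genes, with no test.

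**Figure D3:**
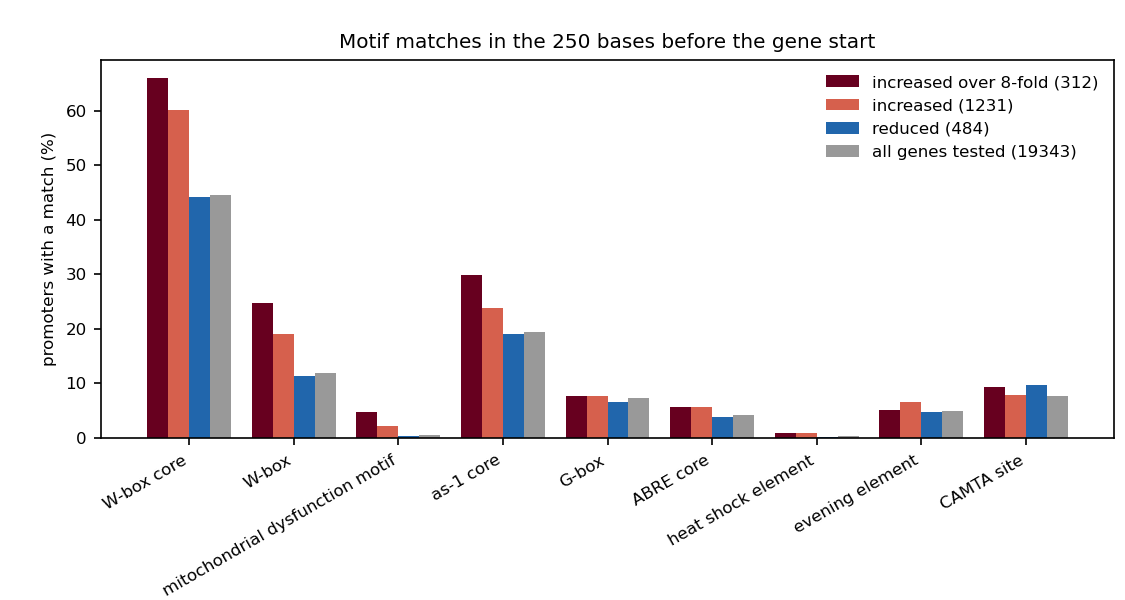
Percentage of promoters (250 bases before the gene start) holding each motif, for genes increased over 8-fold (312), increased (1231), reduced (484) and all tested genes (19343). Bars start at 0; the W-box core and the as-1 core are more frequent among increased genes, and the mitochondrial dysfunction motif reaches 4.81% of genes increased over 8-fold against 0.538% of all.

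Part of each stress transcription factor family increased. WRKY factors, regulators of immune and stress genes, increased in 16 of 50 tested genes with none reduced (median 0.52), against 6.33% and 2.49% of all genes. WRKY30 had 51.2, 43.9 and 37.8 CPM in NAE 18:3 cotyledons, against 1.65, 1.74 and 2.36 CPM in DMSO cotyledons (log2 fold change 4.52 ± 0.30 (SE), edgeR adjusted p = 1.98e-05). WRKY26, which with WRKY25 and WRKY33 supports heat tolerance, had 51.1, 54.9 and 51.9 CPM in NAE 18:3 cotyledons, against 1.73, 3.29 and 3.52 CPM in DMSO cotyledons (log2 fold change 4.21 ± 0.25 (SE), edgeR adjusted p = 1.28e-05). WRKY25 had 142, 131 and 133 CPM in NAE 18:3 cotyledons, against 12.5, 11.7 and 13.1 CPM in DMSO cotyledons, and WRKY33, the main regulator of camalexin synthesis, had 362, 321 and 333 CPM in NAE 18:3 cotyledons, against 102, 98.4 and 83.5 CPM in DMSO cotyledons. WRKY45, a regulator of phosphate uptake, had 33, 24.6 and 21.5 CPM against 0.845, 1.27 and 1.41 CPM, and WRKY6, a senescence and phosphate regulator, had 132, 132 and 128 CPM against 12.9, 14.4 and 22.4 CPM. The groups did not overlap for any of these factors, and DMSO replicate 3 was the highest control for WRKY6.

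Of 17 stress NAC factors tested, 10 increased (median 1.58), against 6.33% of all genes. ATAF2, a repressor of defence genes, had 376, 383 and 391 CPM in NAE 18:3 cotyledons, against 70.3, 67.5 and 80.6 CPM in DMSO cotyledons (log2 fold change 2.39 ± 0.21 (SE), edgeR adjusted p = 5.74e-05). ATAF1, a regulator of abscisic acid synthesis and senescence, had 123, 122 and 141 CPM in NAE 18:3 cotyledons, against 38.4, 32.8 and 22.6 CPM in DMSO cotyledons (log2 fold change 2.04 ± 0.18 (SE), edgeR adjusted p = 6.62e-05). NAC053, which acts in responses to proteasome stress, had 88.5, 95.6 and 79.4 CPM against 13.4, 11.7 and 12.5 CPM, and NAC001 had 110.2, 113 and 101 CPM against 5.79, 7.0 and 11.9 CPM. ATAF1, ATAF2 and WRKY33 overlap other genes on the opposite strand, so their levels are less certain than those of NAC053 and NAC001. RD26, a dehydration-induced NAC, had 14.9, 26.7 and 31 CPM in NAE 18:3 cotyledons, against 9.13, 9.03 and 9.77 CPM in DMSO cotyledons (log2 fold change 1.38, edgeR adjusted p = 0.00321), and its call was lost without DMSO replicate 1 or 2 or NAE 18:3 replicate 2 or 3 (adjusted p up to 0.0161, edgeR). NAC6, better known as the senescence regulator ORE1, was low, with 1.39, 1.82 and 0.645 CPM against 0.241, 0.188 and 0.29 CPM, and its call was lost in 5 of 6 fits that left out 1 library, the exception being NAE 18:3 replicate 3 (log2 fold change 2.04 to 2.71, adjusted p up to 0.0279, edgeR).

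ZAT and AZF zinc fingers, repressors induced by many stresses, increased in 5 of 9 tested genes (median 2.35). ZAT12, listed as RHL41, had 159, 166 and 149.5 CPM in NAE 18:3 cotyledons, against 33.9, 28.9 and 29.9 CPM in DMSO cotyledons (log2 fold change 2.35 ± 0.17 (SE), edgeR adjusted p = 2.36e-05). ZAT6, ZAT11 and AT3G46080 had log2 fold changes of 2.95, 3.44 and 3.68. Of 34 ERF genes tested, 10 increased and 1 was reduced (median 0.70), against 6.33% and 2.49% of all genes. CRF6, a cytokinin response factor of oxidative stress, had 61.1, 50.6 and 49.5 CPM in NAE 18:3 cotyledons, against 3.42, 3.24 and 3.81 CPM in DMSO cotyledons (log2 fold change 3.94 ± 0.37 (SE), edgeR adjusted p = 8.87e-05). ORA59, which joins ethylene and jasmonate signals, had 18.3, 18.1 and 24.7 CPM in NAE 18:3 cotyledons, against 2.13, 2.16 and 0.911 CPM in DMSO cotyledons (log2 fold change 3.55 ± 0.44 (SE), edgeR adjusted p = 3.65e-04). The reduced member was RRTF1, a redox responsive factor of low level here, with 0.493, 1.23 and 0.946 CPM in NAE 18:3 cotyledons, against 7.28, 6.91 and 4.68 CPM in DMSO cotyledons (log2 fold change -2.81 ± 0.37 (SE), edgeR adjusted p = 4.55e-04), and its locus overlaps AT4G34412 on the other strand. ERF1 was also low, with 2.38, 1.66 and 3.18 CPM against 0.0402, 0.141 and 0.166 CPM.

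Some genes for chitin perception and other pattern receptors increased. Chitin, a polymer of fungal walls, is detected by the LysM receptor kinases LYK5, LYK4 and CERK1 and by LYM proteins, and the signal passes through the receptor-like cytoplasmic kinases BIK1, PBL1 and PBL27. Of 30 such genes tested, 11 increased and none was reduced (median 0.84), against 6.33% and 2.49% of all genes. LYK5, the main chitin binding receptor, had 56.8, 69.3 and 69.5 CPM in NAE 18:3 cotyledons, against 21, 23.4 and 22.7 CPM in DMSO cotyledons (log2 fold change 1.54 ± 0.11 (SE), edgeR adjusted p = 1.92e-05). LYK4 had 16.5, 15.2 and 18.3 CPM in NAE 18:3 cotyledons, against 2.17, 2.44 and 2.48 CPM in DMSO cotyledons (log2 fold change 2.81 ± 0.25 (SE), edgeR adjusted p = 5.83e-05). CERK1, the kinase that both depend on, had 38.2, 34.6 and 33.1 CPM in NAE 18:3 cotyledons, against 17.4, 19.5 and 16.7 CPM in DMSO cotyledons (log2 fold change 0.98 ± 0.09 (SE), edgeR adjusted p = 8.56e-05), just under the 2-fold threshold, and it was called without DMSO replicate 2 or NAE 18:3 replicate 3 (log2 fold change 0.92 to 1.04). LYM2, which acts at plasmodesmata, had 121, 118 and 122 CPM against 46.7, 51.1 and 66.4 CPM (log2 fold change 1.13), in a locus that overlaps AT2G17130. The calls of LYK5 and LYM2 were lost with all 27 libraries in 9 groups.

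Downstream kinases moved in the same direction. BIK1 had 125, 134 and 136 CPM in NAE 18:3 cotyledons, against 38, 38.3 and 46.4 CPM in DMSO cotyledons (log2 fold change 1.68 ± 0.10 (SE), edgeR adjusted p = 1.22e-05). PBL1 had 71.7, 64.9 and 67.5 CPM against 16.9, 17.6 and 19.5 CPM, and PBL27 had 36.7, 35.7 and 32.4 CPM against 25.3, 26.9 and 26.2 CPM (log2 fold change 0.41, edgeR adjusted p = 0.00275), under 2-fold. IOS1, a malectin-like receptor kinase of immune priming, had 71.2, 79.2 and 60.7 CPM in NAE 18:3 cotyledons, against 12.9, 8.23 and 8.15 CPM in DMSO cotyledons (log2 fold change 2.84 ± 0.45 (SE), edgeR adjusted p = 0.00137). The receptor-like protein RLP52, which a chitin oligomer induces, had 7.94, 6.25 and 5.72 CPM against 0.603, 0.658 and 0.745 CPM, and the lectin gene AT3G16530, known as chitin responsive, had 70.1, 64.9 and 59.6 CPM in NAE 18:3 cotyledons, against 8.85, 8.93 and 18.9 CPM in DMSO cotyledons (log2 fold change 2.4 ± 0.35 (SE), edgeR adjusted p = 8.87e-04). The NAE 18:3 values of BIK1, PBL1 and IOS1 all exceeded the highest control by more than 2-fold. SERK4 and WAK1 were also called (log2 fold changes 1.05 and 1.84), but without DMSO replicate 1 or NAE 18:3 replicate 1 SERK4 was not (1.0 to 1.16), and WAK1 stayed called only without DMSO replicate 3 (1.54 to 2.15, adjusted p up to 0.0266, edgeR).

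Reactive oxygen and MAP kinase genes increased in 9 of 24 tested (median 0.36). OXI1, an oxidative burst kinase listed as AGC2-1, had 144, 125 and 122 CPM in NAE 18:3 cotyledons, against 4.5, 2.21 and 5.55 CPM in DMSO cotyledons (log2 fold change 4.98 ± 0.42 (SE), edgeR adjusted p = 5.02e-05). RBOHD, the NADPH oxidase that makes the burst, had 202, 205 and 193 CPM in NAE 18:3 cotyledons, against 93.3, 96.3 and 97 CPM in DMSO cotyledons (log2 fold change 1.06 ± 0.09 (SE), edgeR adjusted p = 3.71e-05). MAPKKK18 and MKK9 had log2 fold changes of 2.56 and 1.29. MPK3, an immune MAP kinase, had 114, 95.4 and 101 CPM against 60.7, 45.8 and 46.1 CPM (log2 fold change 1.02), and its call was lost without DMSO replicate 2 or 3 or NAE 18:3 replicate 1 (0.94 to 1.16). MPK3 and TCH3 overlap genes on the other strand. Calmodulin-like calcium sensors increased in 6 of 17 and were reduced in 1 (median 0.99). TCH3, a touch-induced sensor, had 403, 379 and 389 CPM against 101, 140.0 and 98.8 CPM, CML42, a negative regulator of herbivory responses, had 28.7, 26 and 22 CPM against 5.35, 4.23 and 6.5 CPM, and AT1G21550 had 26.6, 29.2 and 25.2 CPM against 0.724, 0.47 and 1.24 CPM. The receptor kinase LRR XI-23, also known as RLK7, a receptor for PIP peptides, had 954, 932 and 945 CPM against 171, 211 and 232 CPM. With all 27 libraries in 9 groups the calls of RBOHD, MKK9, MPK3 and TCH3 were lost.

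Enzymes of tryptophan-derived defence metabolites rose in 7 of 21 tested genes, with none reduced (median 0.50). CYP81F2, which hydroxylates indole glucosinolates for defence, had 40.7, 32.7 and 43.9 CPM in NAE 18:3 cotyledons, against 2.77, 3.76 and 5.38 CPM in DMSO cotyledons (log2 fold change 3.29 ± 0.29 (SE), edgeR adjusted p = 6.44e-05). PAD3, the last enzyme of camalexin synthesis, had 18.8, 10.3 and 9.5 CPM in NAE 18:3 cotyledons, against 2.21, 1.46 and 1.57 CPM in DMSO cotyledons (log2 fold change 2.86 ± 0.37 (SE), edgeR adjusted p = 4.86e-04). PEN2, the myrosinase whose products PEN3 exports, had 337, 343 and 333 CPM in NAE 18:3 cotyledons, against 120.1, 95.8 and 96.2 CPM in DMSO cotyledons (log2 fold change 1.69 ± 0.17 (SE), edgeR adjusted p = 1.09e-04). MYB51, the regulator of indole glucosinolate synthesis, had 37.2, 31.5 and 30.4 CPM against 6.51, 7.85 and 7.7 CPM. IGMT2, a methyltransferase of the same pathway, had 39.3, 29.5 and 31.6 CPM against 1.77, 2.3 and 4.76 CPM, but its near copy AT1G21110 (96.3% identity) may share reads with it.

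Salicylic acid genes increased in 5 of 16 tested (median 0.74), and this count was 3 without DMSO replicate 1 or 2 or NAE 18:3 replicate 2 or 3. NPR4, a salicylic acid receptor and repressor, had 30.8, 33 and 33.2 CPM in NAE 18:3 cotyledons, against 6.35, 5.22 and 5.84 CPM in DMSO cotyledons (log2 fold change 2.47 ± 0.14 (SE), edgeR adjusted p = 9.35e-06). ICS2, the minor isochorismate synthase, had 19.1, 16.4 and 13.6 CPM against 6.15, 4.89 and 6.08 CPM, and CBP60G, a regulator of salicylic acid synthesis, had 25.2, 24.6 and 21.4 CPM against 11.6, 10.2 and 5.5 CPM. The call of CBP60G was lost with all 27 libraries in 9 groups. Jasmonate synthesis genes showed 1 increase among 15, against 6.33% of all genes, although 5 were called without DMSO replicate 3. The increased gene was AOC1, an allene oxide cyclase, with 269.8, 232 and 365 CPM against 40.4, 56.3 and 84.1 CPM. LOX2, the lipoxygenase of jasmonate synthesis, had 1289, 1503 and 1921 CPM against 705, 836 and 1347 CPM (log2 fold change 0.70, edgeR adjusted p = 0.0617). Of 11 JAZ repressors tested JAZ7 was called, with 0.135, 1.42 and 0.86 CPM against 6.92, 7.43 and 9.56 CPM (log2 fold change -3.27), and it was not called in any fit that left out 1 library (-3.98 to -2.79, adjusted p up to 0.0242, edgeR).

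Heat shock factors and chaperones increased in 9 of 31 tested genes, and in 15 without DMSO replicate 3 (median 0.59). HSFA2, a factor induced by heat and hydrogen peroxide, had 40.4, 40.0 and 54.5 CPM in NAE 18:3 cotyledons, against 5.59, 2.77 and 8.03 CPM in DMSO cotyledons (log2 fold change 3.02 ± 0.39 (SE), edgeR adjusted p = 4.89e-04). HSFA4A had 129.6, 126 and 113 CPM in NAE 18:3 cotyledons, against 17.3, 16.8 and 19 CPM in DMSO cotyledons (log2 fold change 2.79 ± 0.20 (SE), edgeR adjusted p = 2.68e-05). HSP101, the disaggregase, had 102, 115 and 128 CPM against 19.5, 16.5 and 32.2 CPM, while HSFB1, a repressor listed as HSF4, had 129.6, 138 and 152 CPM against 16.8, 17.6 and 39 CPM. The call of HSP101 was lost with all 27 libraries in 9 groups, as was that of ATERDJ3A, given below. In the unfolded protein response of the endoplasmic reticulum, 2 of 22 genes increased (median -0.20), against 6.33% of all genes. These were BZIP60, the factor activated by splicing, with 240.2, 224 and 201 CPM in NAE 18:3 cotyledons, against 45.7, 54 and 50.4 CPM in DMSO cotyledons (log2 fold change 2.14 ± 0.17 (SE), edgeR adjusted p = 3.38e-05), and ATERDJ3A with 29.2, 34.5 and 31.4 CPM against 8.24, 9.45 and 7.95 CPM. The chaperones that BZIP60 is known to induce were not called: BIP2 had 342, 329 and 371 CPM against 497, 563 and 329 CPM (log2 fold change -0.42, edgeR adjusted p = 0.106) and CNX1 319, 314 and 373 CPM against 582, 641 and 375 CPM (-0.67, edgeR adjusted p = 0.0182).

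Protein and organelle turnover genes changed in part. Of 27 autophagy genes, 3 increased (median 0.39) and 25 had a positive log2 fold change, against 6.33% and 47.7% of all genes tested. ATG8E, a ubiquitin-like protein of autophagosome membranes, had 35.2, 38 and 36.8 CPM in NAE 18:3 cotyledons, against 4.18, 4.37 and 5.17 CPM in DMSO cotyledons (log2 fold change 2.99 ± 0.19 (SE), edgeR adjusted p = 1.34e-05). Of 34 U-box and ATL ubiquitin ligases, 4 increased and 1 was reduced (median 0.08), against 6.33% and 2.49% of all genes. ATL31, a ligase of the carbon to nitrogen response listed as CNI1, had 95, 81 and 81.2 CPM in NAE 18:3 cotyledons, against 4.22, 4.56 and 5.17 CPM in DMSO cotyledons (log2 fold change 4.2 ± 0.29 (SE), edgeR adjusted p = 2.36e-05). PUB24, a negative regulator of pattern immunity, had 18.4, 17.6 and 17.7 CPM in NAE 18:3 cotyledons, against 0.925, 0.893 and 1.66 CPM in DMSO cotyledons (log2 fold change 3.93 ± 0.33 (SE), edgeR adjusted p = 4.50e-05).

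Abscisic acid genes changed in a mixed way. This hormone shares with NAEs a role in arresting seedling establishment, and the study asked whether its pathway responds. NCED3, the main stress-inducible enzyme of abscisic acid synthesis, had 8.61, 11 and 10.0 CPM in NAE 18:3 cotyledons, against 3.62, 4.14 and 3.52 CPM in DMSO cotyledons (log2 fold change 1.39 ± 0.14 (SE), edgeR adjusted p = 1.12e-04). AAO3, the last oxidase of the pathway, had 56.4, 62.9 and 49.1 CPM against 28.7, 28.6 and 23.4 CPM (log2 fold change 1.06), a change under 2-fold without DMSO replicate 3 or NAE 18:3 replicate 2 (0.96 to 1.15). Of the hydroxylases that break the hormone down, CYP707A2 had 1.3, 2.1 and 1.12 CPM against 6.43, 8.37 and 10.8 CPM (-2.5; not called without NAE 18:3 replicate 1), and CYP707A3 had 41.6, 49.5 and 45.2 CPM against 113, 98.2 and 61.3 CPM (-1.0; called in 1 of 6 fits that left out 1 library). CYP707A4 was called increased at a lower level, with 1.66, 1.54 and 0.946 CPM against 0.282, 0.423 and 0.621 CPM (1.63), and the call was lost without DMSO replicate 1 or 2 or NAE 18:3 replicate 1 or 2 (1.38 to 1.98, adjusted p up to 0.0357, edgeR). CYP707A1 was higher by under 2-fold, with 75.8, 69.8 and 77.5 CPM against 43.5, 38.5 and 47.6 CPM (0.78, edgeR adjusted p = 0.00707).

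Of 23 receptors, PP2C phosphatases and SnRK2 kinases tested, 2 increased (median 0.27), against 6.33% of all genes. Both are phosphatases that dampen the signal. HAI2 had 2.06, 1.58 and 1.68 CPM in NAE 18:3 cotyledons, against 0.121, 0.141 and 0.248 CPM in DMSO cotyledons (log2 fold change 3.33 ± 0.36 (SE), edgeR adjusted p = 1.52e-04). ABI2 had 10.8, 10.5 and 8.04 CPM in NAE 18:3 cotyledons, against 4.83, 4.47 and 4.01 CPM in DMSO cotyledons (log2 fold change 1.14 ± 0.19 (SE), edgeR adjusted p = 0.00177). The call of ABI2 was lost with all 27 libraries in 9 groups. HAI1 had 1.66, 1.62 and 1.68 CPM against 0.282, 1.55 and 0.828 CPM (0.91, edgeR adjusted p = 0.206), PP2CA 15.2, 14 and 11.8 CPM against 16.4, 22.2 and 25.5 CPM (-0.65, edgeR adjusted p = 0.0155) and the kinase OST1 32.2, 31.3 and 26.4 CPM against 18.4, 22 and 25.3 CPM (0.45, edgeR adjusted p = 0.0414). Of 13 tested genes for ABI, ABF and related transcription factors 1 increased, against 6.33% of all genes, and no ABI or ABF gene was called. The increased gene was SPT, a bHLH factor of seed dormancy and growth, with 104, 98.7 and 94.4 CPM against 25.5, 29 and 45.9 CPM (log2 fold change 1.56 ± 0.21 (SE), edgeR adjusted p = 5.71e-04). ABI5, which enforces growth arrest, had 9.64, 5.46 and 7.31 CPM in NAE 18:3 cotyledons, against 2.94, 2.54 and 4.1 CPM in DMSO cotyledons (log2 fold change 1.21, edgeR adjusted p = 0.011) and missed the threshold. It was called with DESeq2, with no filter on low counts, with only the 6 libraries compared and with the replicate block, and of the fits that left out 1 library it was called without DMSO replicate 3 (1.45, edgeR adjusted p = 0.00853). ABI3 and NCED2 were below the filter on low counts in cotyledons and were not tested. Of 23 cold, drought and abscisic acid effector genes tested, 2 increased and 2 were reduced (median -0.18), against 6.33% and 2.49% of all genes. The dehydrin ERD10 was reduced, with 34.9, 37.4 and 42.8 CPM against 91.9, 122 and 146 CPM (-1.65, edgeR adjusted p = 8.37e-04). The other reduced gene, ERD7 (-1.24), was not called in any fit that left out 1 library. The drought factor DREB2A increased, with 23.9, 24 and 24.9 CPM against 6.51, 4.09 and 3.85 CPM (2.32, edgeR adjusted p = 6.62e-05). Its locus overlaps AT5G05420 on the other strand. EM1, a seed protein gene, was called at a very low level, with 0.628, 0.514 and 0.645 CPM against 0.0804, 0 and 0.0828 CPM, and the 17 seed and embryo markers summed to between 2.91 and 3.61 CPM under NAE 18:3 and between 2.16 and 2.69 CPM under DMSO. The call of EM1 was lost with all 27 libraries in 9 groups.

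Genes that make and remove NAEs were examined next. Of 18 tested genes of NAE and polyunsaturated fatty acid metabolism, 1 increased, against 6.33% of all genes (median 0.10). It was PLDGAMMA1, a phospholipase D of the class that can release NAEs, with 49.5, 46.3 and 49.8 CPM in NAE 18:3 cotyledons, against 17.1, 17.4 and 18.5 CPM in DMSO cotyledons (log2 fold change 1.45 ± 0.12 (SE), edgeR adjusted p = 4.28e-05). FAAH had 73.1, 79.6 and 67.3 CPM in NAE 18:3 cotyledons, against 68.1, 60.3 and 76.2 CPM in DMSO cotyledons (log2 fold change 0.10 ± 0.11 (SE), edgeR adjusted p = 0.561). The lipoxygenases LOX1 and LOX4 had 82.9, 123 and 146 CPM against 127, 151 and 271 CPM (-0.65, edgeR adjusted p = 0.168) and 22.1, 31.5 and 27.9 CPM against 41.6, 38.8 and 49.5 CPM (-0.68, edgeR adjusted p = 0.242), and the values of the groups overlapped for LOX1. LOX1 also overlaps AT1G55030 on the other strand. Of 18 genes of oil breakdown and the glyoxylate cycle none was called in edgeR (6 had an unadjusted p under 0.05 and DESeq2 called 1), while 4 were without DMSO replicate 3. ICL, isocitrate lyase, had 4988, 5454 and 6052 CPM in NAE 18:3 cotyledons, against 1744, 2553 and 4587 CPM in DMSO cotyledons (0.89, edgeR adjusted p = 0.118), with DMSO replicate 3 far above the other controls.

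Photosynthesis genes stayed close to their DMSO level. None of 59 nuclear photosynthesis genes was called (edgeR), against 8.82% of all genes, and they ran from a log2 fold change of -0.37 to 0.42 around a median of -0.0028. Of these 59 genes 2 had an unadjusted p under 0.05, and DESeq2 called 0. RBCS1A, a small subunit of Rubisco, had 22143, 21658 and 23235 CPM in NAE 18:3 cotyledons, against 23149.7, 22892 and 17729 CPM in DMSO cotyledons, with overlapping groups. Greening regulators and chlorophyll synthesis genes were reduced in 4 of 34 tested and increased in 1 (median -0.01), against 2.49% and 6.33% of all genes. The reduced count was 2 to 3 when single libraries were left out. The 4 reduced genes included GUN4, whose counts could not be used and whose call was lost in 5 of 6 fits that left out 1 library, with DESeq2 and with the replicate block. GLK2, a factor that activates chloroplast genes, had 81.1, 93.1 and 83.7 CPM in NAE 18:3 cotyledons, against 189, 175 and 167 CPM in DMSO cotyledons (log2 fold change -1.05 ± 0.17 (SE), edgeR adjusted p = 0.00148). Its homologue GLK1, listed as GPRI1, had 169, 164 and 147 CPM in NAE 18:3 cotyledons, against 164, 167 and 230.1 CPM in DMSO cotyledons (log2 fold change -0.23 ± 0.17 (SE), edgeR adjusted p = 0.339). The GATA factors GNC and CGA1, which promote greening under cytokinin, had 20.1, 18.6 and 16.9 CPM against 35.8, 38.5 and 57.7 CPM (-1.25, edgeR adjusted p = 7.01e-04) and 8.12, 6.96 and 9.2 CPM against 15.8, 19 and 42 CPM (-1.67, edgeR adjusted p = 0.00657).

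Leaving out single libraries bore on the GATA factors. GNC was under 2-fold without DMSO replicate 3 (-0.99), and CGA1 was not called when any 1 of the NAE 18:3 libraries was left out (-1.93 to -1.09, adjusted p up to 0.0325, edgeR). CGA1 also lost its call with only the 6 libraries compared and with no filter on low counts. GNC and HEMA2 lost their calls with all 27 libraries in 9 groups. HEMA2, a glutamyl-tRNA reductase of tetrapyrrole synthesis outside greening, had 86.4, 94.8 and 88 CPM in NAE 18:3 cotyledons, against 31.9, 37.2 and 47.3 CPM in DMSO cotyledons (log2 fold change 1.2 ± 0.17 (SE), edgeR adjusted p = 7.62e-04). CHLH, the magnesium chelatase subunit also called GUN5, had 2347, 2700.2 and 2177 CPM against 1975, 2165 and 2002 CPM (0.23, edgeR adjusted p = 0.279), and PORB, a protochlorophyllide reductase, 1659, 1552 and 2184 CPM against 811, 895 and 1680.1 CPM (0.67, edgeR adjusted p = 0.0956). Chlorophyll breakdown and senescence genes increased in 3 of 18 tested (median 0.71), with SAG13, a reductase of senescence, at 10.1, 7.95 and 7.87 CPM against 0.322, 0.423 and 0.579 CPM. NYC1, the chlorophyll b reductase that opens breakdown, had 238, 241 and 221 CPM against 143, 152 and 150.2 CPM (0.65, edgeR adjusted p = 4.89e-04), above every control by under 2-fold.

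Part of the nitrate assimilation pathway was reduced. Nitrate reductase (NIA1, NIA2) and nitrite reductase (NIR1) turn nitrate into ammonium, and LBD37, LBD38 and LBD39 repress the response to nitrate. Of 28 genes of nitrate reduction and transport tested, 7 were reduced and 4 increased (median -0.62). NIA2 had 683, 676 and 808 CPM in NAE 18:3 cotyledons, against 1658, 1851 and 1761 CPM in DMSO cotyledons (log2 fold change -1.29 ± 0.24 (SE), edgeR adjusted p = 0.00332). NIR1 had 558, 525 and 625 CPM in NAE 18:3 cotyledons, against 1183, 1382 and 1336 CPM in DMSO cotyledons (log2 fold change -1.2 ± 0.12 (SE), edgeR adjusted p = 1.02e-04). LBD39 had 8.52, 7.95 and 8.64 CPM in NAE 18:3 cotyledons, against 47.5, 42.9 and 41.6 CPM in DMSO cotyledons (log2 fold change -2.4 ± 0.17 (SE), edgeR adjusted p = 2.36e-05). NIA1, NIR1 and LBD39 kept their calls without any single library. NIA2 lost its call without DMSO replicate 2 or NAE 18:3 replicate 1 or 2 (-1.37 to -1.24, adjusted p up to 0.0179, edgeR).

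G6PD3, which supplies reductant to nitrite reduction, had 23.5, 16.9 and 32.2 CPM in NAE 18:3 cotyledons, against 108, 97.1 and 101 CPM in DMSO cotyledons (log2 fold change -2.08 ± 0.25 (SE), edgeR adjusted p = 3.04e-04), in a locus with overlapping genes on the other strand. LBD38 had 26.1, 19.6 and 19.7 CPM against 40.3, 45.5 and 58.8 CPM (-1.15), and was under 2-fold without DMSO replicate 3 (-0.96). UPM1, an enzyme of the sirohaem cofactor of NIR1, had 291, 217 and 345 CPM against 502, 539 and 557 CPM (-0.91, edgeR adjusted p = 0.00433). GS2, which assimilates ammonium in plastids, was not called, with 2752, 2729.8 and 2404 CPM against 2942, 2848 and 2307 CPM (-0.04, edgeR adjusted p = 0.816). ASN2, an asparagine synthetase, had 141, 161 and 174 CPM in NAE 18:3 cotyledons, against 650.0, 569 and 367 CPM in DMSO cotyledons (log2 fold change -1.74 ± 0.20 (SE), edgeR adjusted p = 2.61e-04). The nitrate transporter genes NRT1.8 and NRT1.7 changed the other way. NRT1.8 had 19, 10.4 and 16.9 CPM in NAE 18:3 cotyledons, against 4.26, 3.34 and 2.77 CPM in DMSO cotyledons (log2 fold change 2.15 ± 0.26 (SE), edgeR adjusted p = 3.39e-04) and NRT1.7, a phloem loader of nitrate, 640.1, 603 and 464 CPM against 234, 243 and 169 CPM (1.4, edgeR adjusted p = 4.31e-04). The increased count of this list was 2 without NAE 18:3 replicate 2, and NRT1.7 lost its call with all 27 libraries in 9 groups.

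Sugar carriers were called higher in 6 of 23 genes and lower in 1 (median 0.50). STP13, a hexose importer induced by pathogens and listed as MSS1, had 88.3, 76.7 and 70.7 CPM in NAE 18:3 cotyledons, against 15.7, 13.4 and 19.4 CPM in DMSO cotyledons (log2 fold change 2.27 ± 0.27 (SE), edgeR adjusted p = 3.08e-04). SUC2, which loads sucrose into the phloem, had 77.1, 75.4 and 83.1 CPM in NAE 18:3 cotyledons, against 24, 18.2 and 22.6 CPM in DMSO cotyledons (log2 fold change 1.85 ± 0.12 (SE), edgeR adjusted p = 1.32e-05). SWEET2, a vacuolar sugar channel, had 5.65, 8.11 and 7.1 CPM against 18.2, 19.7 and 25.6 CPM (-1.61, edgeR adjusted p = 6.81e-04). ERD6, a sugar carrier of the vacuole induced by drying, had 231, 195 and 215 CPM against 87.5, 102 and 97.6 CPM (1.15, edgeR adjusted p = 1.13e-04). GPT2, which brings glucose phosphate into plastids, had 367, 272 and 372 CPM in NAE 18:3 cotyledons, against 968, 893 and 636 CPM in DMSO cotyledons (log2 fold change -1.31 ± 0.26 (SE), edgeR adjusted p = 0.00466), but it kept its call only without DMSO replicate 3 (-1.45 to -1.18, adjusted p up to 0.0236, edgeR).

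Some cell wall genes of expanding tissue were reduced. Xyloglucan endotransglucosylases (XTH) cut and rejoin wall glucans and expansins loosen the wall. Of 25 XTH genes 8 were reduced and 1 increased (median -0.48), against 2.49% and 6.33% of all genes. The reduced count was 4 without DMSO replicate 1 or 2 or NAE 18:3 replicate 1, 2 or 3, and as low as 2 with other settings. XTH6 had 4.17, 5.18 and 4.3 CPM in NAE 18:3 cotyledons, against 33.3, 25.6 and 14.4 CPM in DMSO cotyledons (log2 fold change -2.43 ± 0.30 (SE), edgeR adjusted p = 3.74e-04). The increased member, XTH30, had 20.9, 20.7 and 14.2 CPM in NAE 18:3 cotyledons, against 2.98, 2.07 and 2.28 CPM in DMSO cotyledons (log2 fold change 2.92 ± 0.35 (SE), edgeR adjusted p = 3.04e-04). Of 20 expansins tested 3 were reduced (median -0.34), against 2.49% of all genes. They were EXLA1, EXLA2 and EXPA5, the last with 6.68, 7.56 and 10.0 CPM against 38.2, 33.3 and 20.8 CPM.

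Fasciclin-like arabinogalactan proteins, surface glycoproteins of the wall, were reduced in 7 of 15 tested (median -0.93), the lowest median of any list with at least 7 tested members. Of all genes 2.49% were reduced. The count for this list was 5 to 6 without single libraries and as low as 3 with other settings. FLA9 had 100.2, 116 and 92.5 CPM in NAE 18:3 cotyledons, against 359, 300.2 and 194 CPM in DMSO cotyledons (log2 fold change -1.47 ± 0.23 (SE), edgeR adjusted p = 0.0013). FLA18 had 64.7, 67 and 66.6 CPM against 184, 181 and 118 CPM. DMSO replicate 3 was the lowest control in FLA9 and FLA18, yet above every NAE 18:3 library. Of 16 cellulose genes 1 was reduced (median -0.40), CESA5, a subunit for primary walls, with 110.2, 131 and 109 CPM in NAE 18:3 cotyledons, against 328, 315 and 241 CPM in DMSO cotyledons (log2 fold change -1.34 ± 0.18 (SE), edgeR adjusted p = 5.78e-04). In the EXORDIUM family 3 of 7 were reduced and 1 increased. EXO, the founding member and a brassinosteroid target, had 81.7, 93.1 and 108 CPM in NAE 18:3 cotyledons, against 397, 377 and 309.8 CPM in DMSO cotyledons (log2 fold change -1.94 ± 0.16 (SE), edgeR adjusted p = 3.45e-05), whereas EXL4 had 229, 231 and 258 CPM in NAE 18:3 cotyledons, against 51.4, 58.6 and 93.6 CPM in DMSO cotyledons (log2 fold change 1.81 ± 0.22 (SE), edgeR adjusted p = 3.21e-04).

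Auxin response genes pointed in several directions. GH3 enzymes, which join auxin to amino acids, increased in 4 of 7 tested, and in 2 without DMSO replicate 1, 2 or 3 or NAE 18:3 replicate 1 or 2. GH3.3 had 21.3, 22.2 and 19.3 CPM in NAE 18:3 cotyledons, against 9.09, 6.77 and 7.16 CPM in DMSO cotyledons (log2 fold change 1.44 ± 0.17 (SE), edgeR adjusted p = 2.75e-04), and GH3.5, listed as WES1, had 39.6, 31.5 and 45.9 CPM in NAE 18:3 cotyledons, against 14.3, 13.4 and 16 CPM in DMSO cotyledons (log2 fold change 1.41 ± 0.22 (SE), edgeR adjusted p = 0.00127). SAUR genes, short-lived auxin-induced growth regulators, increased in 6 and fell in 6 of 46 tested (median -0.56), with 2 reduced without NAE 18:3 replicate 1 and 3 without NAE 18:3 replicate 2. SAUR36, a senescence-related member, had 18.5, 16 and 13.2 CPM against 4.18, 3.2 and 1.99 CPM (2.34, edgeR adjusted p = 4.09e-04). Of 25 Aux/IAA repressors 3 were reduced, against 2.49% of all genes, and none was without DMSO replicate 2 or NAE 18:3 replicate 1 or 2. AUX1, an auxin importer, had 21.4, 23.4 and 25 CPM in NAE 18:3 cotyledons, against 50.1, 48.2 and 49.9 CPM in DMSO cotyledons (log2 fold change -1.09 ± 0.09 (SE), edgeR adjusted p = 3.50e-05). The calls of GH3.3 and AUX1 were lost with all 27 libraries in 9 groups.

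Other hormone genes changed singly. ARR7, a cytokinin-induced repressor, had 28.8, 18.9 and 21.1 CPM in NAE 18:3 cotyledons, against 4.18, 5.26 and 5.79 CPM in DMSO cotyledons (log2 fold change 2.17 ± 0.25 (SE), edgeR adjusted p = 2.38e-04). GA2OX2, which inactivates gibberellin, had 48.3, 36.8 and 45.6 CPM against 12.1, 18.1 and 21 CPM (1.35, edgeR adjusted p = 7.53e-04), and BRL3, a brassinosteroid receptor of vascular cells, had 24.8, 22.1 and 18.1 CPM against 3.98, 4.75 and 5.38 CPM (2.2, edgeR adjusted p = 4.76e-04). The light-signalling factor BBX22, listed as LZF1, had 93.6, 85.5 and 85 CPM in NAE 18:3 cotyledons, against 24.9, 21.4 and 11.9 CPM in DMSO cotyledons (log2 fold change 2.18 ± 0.28 (SE), edgeR adjusted p = 4.72e-04), and the bHLH factor SPT, a repressor of cotyledon expansion and germination in the cold, had 104, 98.7 and 94.4 CPM in NAE 18:3 cotyledons, against 25.5, 29 and 45.9 CPM in DMSO cotyledons (log2 fold change 1.56 ± 0.21 (SE), edgeR adjusted p = 5.71e-04). None of 20 mitotic cyclins and kinases tested was called in edgeR or DESeq2 (median 0.10), and 1 had an unadjusted p under 0.05. Of the 32 root markers 10 passed the filter on low counts in cotyledons and were tested. WOX5, a homeobox gene of the root stem cell niche, was the single one called, with 15.6, 19.5 and 22 CPM in NAE 18:3 cotyledons, against 0.885, 2.21 and 2.28 CPM in DMSO cotyledons (log2 fold change 3.41 ± 0.33 (SE), edgeR adjusted p = 9.57e-05).

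A minority of surface lipid and flavonoid genes was reduced. Of 24 genes of cuticular wax and very-long-chain acyl chains 8 were reduced and none increased (median -0.63). The count was 5 without NAE 18:3 replicate 1 or 2. KCS1, a condensing enzyme of chain elongation, had 65.7, 95.2 and 117 CPM in NAE 18:3 cotyledons, against 262, 229 and 233 CPM in DMSO cotyledons (log2 fold change -1.38 ± 0.18 (SE), edgeR adjusted p = 5.19e-04). KCS3 had 18.3, 25.2 and 28.7 CPM against 98.1, 74.3 and 73.7 CPM, and CER2, which extends the longest chains, 17.6, 26.1 and 26.1 CPM against 64.7, 48.8 and 49.7 CPM. NAE 18:3 replicate 1 was the lowest of its group for KCS1, KCS3 and CER2. Of 33 phenylpropanoid and flavonoid genes 6 were reduced (median -0.58), against 2.49% of all genes. The count was 3 without NAE 18:3 replicate 1 and as low as 1 with other settings. FLS1, flavonol synthase, had 36.2, 46.4 and 58.5 CPM in NAE 18:3 cotyledons, against 172, 129.8 and 116 CPM in DMSO cotyledons (log2 fold change -1.57 ± 0.20 (SE), edgeR adjusted p = 4.36e-04), and 4CL3, a ligase that feeds the flavonoid branch, had 25.2, 34.5 and 50.4 CPM in NAE 18:3 cotyledons, against 134, 109 and 118 CPM in DMSO cotyledons (log2 fold change -1.72 ± 0.25 (SE), edgeR adjusted p = 9.35e-04). The call of 4CL3 was lost with all 27 libraries in 9 groups.

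**Figure D4:**
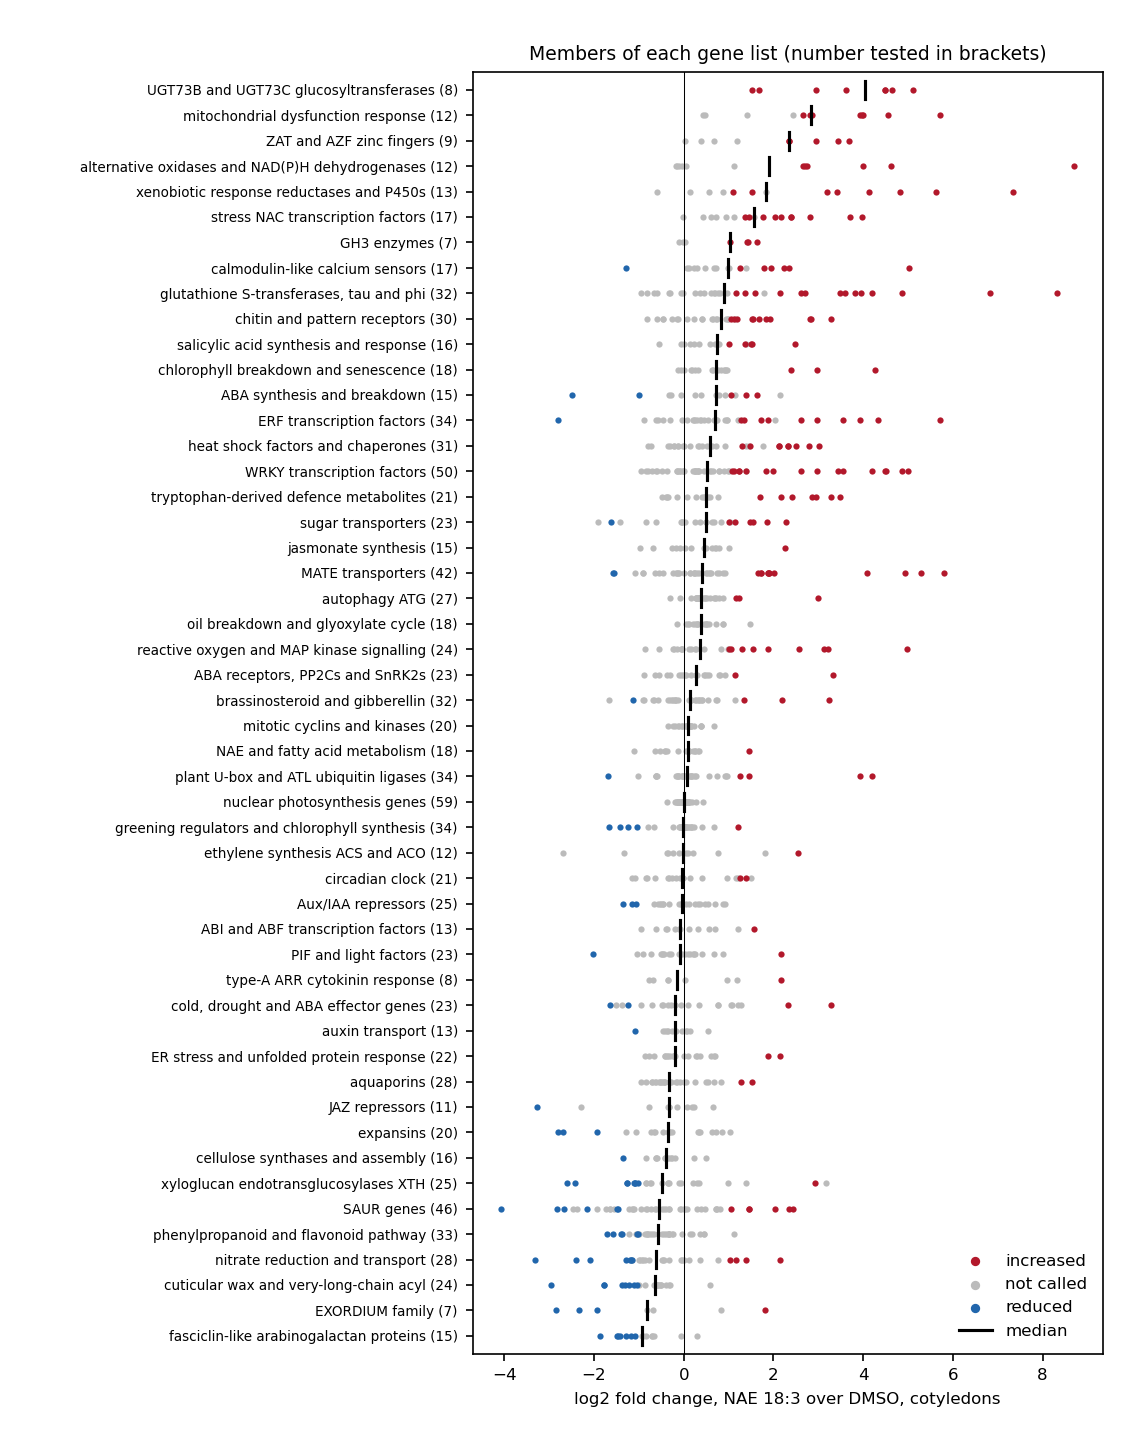
Log2 fold change of NAE 18:3 over DMSO in cotyledons for every tested member of 50 gene lists with at least 7 tested members, ordered by median (black bar). Red points are increased, blue reduced and grey not called; UGT73B and UGT73C genes have the highest median (4.05) and fasciclin-like arabinogalactan protein genes the lowest (-0.93), against -0.02 over all tested genes.

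Roots of the same treatment gave a comparison at the same dose, with DMSO libraries of their own. In roots NAE 18:3 increased 1197 of 20138 genes tested and reduced 3376 by the same rule. Below, a larger log2 fold change in cotyledons is a more positive one, which includes genes that fell further in roots. A test of the difference between the effects of NAE 18:3 in cotyledons and in roots called 3336 of 21643 genes (15.4%), 2133 with a larger log2 fold change in cotyledons (9.86%) and 1203 with a smaller one (5.56%). These numbers depend on scaling, since the median difference over all genes was -0.13 under TMM and -0.02 under the size factors of DESeq2 used in edgeR, which gave 2355 and 798 genes, so that 74.7% rather than 63.9% of called genes were larger in cotyledons. Of the 1231 genes increased in cotyledons, 396 were also increased in roots, 155 were reduced in roots, 621 were tested there and not called and 59 were not tested there. For 410 of them the log2 fold change was larger in cotyledons by the test of the difference and for 13 it was smaller. Of the 484 reduced genes, 185 were also reduced in roots and 15 increased, and the difference was called for 111, with 30 larger and 81 smaller. NAE 18:3 root replicate 3 stood apart in its mesophyll markers, which summed to 1130 CPM, against 48.0 to 93.8 CPM in the other root libraries of NAE 18:3 and DMSO. Without it 1967 and 1148 genes were called, and the part of these markers in the differences was not tested.

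**Figure D5:**
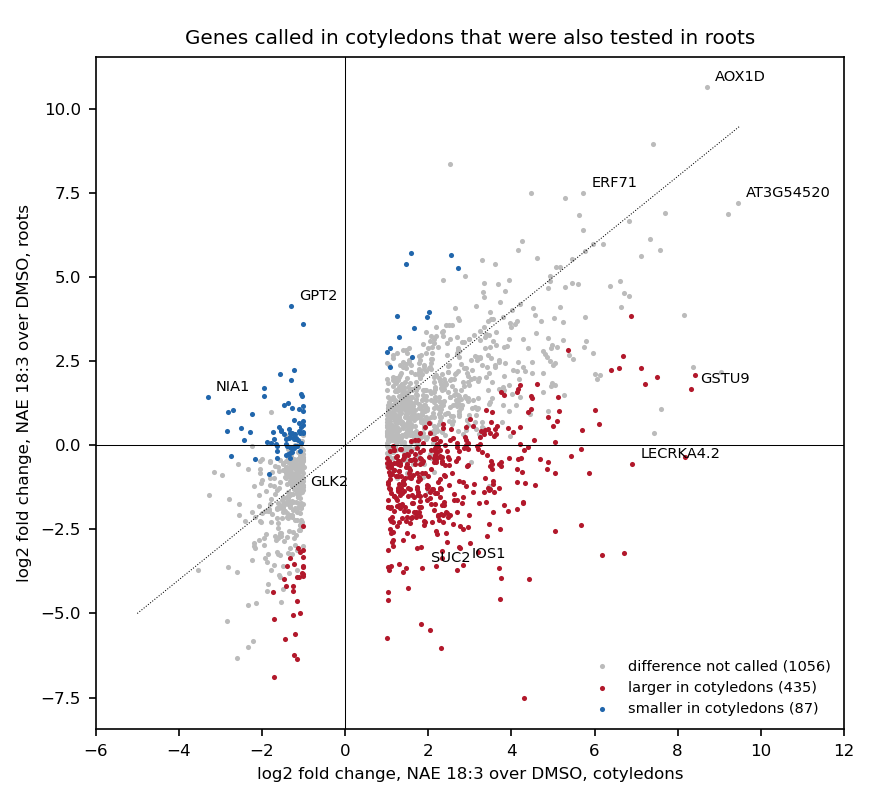
Log2 fold change of NAE 18:3 over DMSO in cotyledons (horizontal) and roots (vertical) for 1578 genes that were called in cotyledons and tested in roots; the dotted line marks equal values. Red genes (435) had a larger and blue genes (87) a smaller log2 fold change in cotyledons by the test of the difference, and AOX1D lies far out in both organs while NIA1 lies on opposite sides of 0.

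Glucosyltransferase and mitochondrial genes were high in roots too, with median log2 fold changes of 4.05 in cotyledons and 2.48 in roots for UGT73B and UGT73C genes and of 2.83 and 2.9 for the mitochondrial dysfunction genes. AOX1D had 11, 52.8 and 17.2 CPM in NAE 18:3 roots, against 0.0288, 0 and 0 CPM in DMSO roots, and its difference between organs was not called (edgeR adjusted p = 0.698). CYP81D8 had 132, 242 and 139 CPM in NAE 18:3 roots, against 2.05, 1.69 and 2.66 CPM in DMSO roots (difference 1.03 ± 0.85 (SE), edgeR adjusted p = 0.354). None of the 8 UGT73B and UGT73C genes, of the 12 mitochondrial dysfunction genes or of the 22 genes of the unfolded protein response differed between the organs by this test, although 5, 2 and 5 of these genes had an unadjusted p under 0.05 and a p above the threshold does not show equal effects. GSTU9 did differ: it had 26.5, 99.4 and 54.8 CPM in NAE 18:3 roots, against 16.9, 12.9 and 20.1 CPM in DMSO roots (difference 6.51 ± 0.78 (SE), edgeR adjusted p = 3.18e-06). Of 37 tau and phi glutathione transferases tested, 14 had a larger log2 fold change in cotyledons and none a smaller one.

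Nitrate reductase changed in opposite directions in the organs. NIA1 had 178, 367 and 222 CPM in NAE 18:3 roots, against 97, 81.8 and 71 CPM in DMSO roots (log2 fold change 1.43, edgeR adjusted p = 0.00904), against a log2 fold change of -3.31 in cotyledons (difference -4.89 ± 0.50 (SE), edgeR adjusted p = 5.66e-07). EXO also split, with 45.6, 66.1 and 58.9 CPM in NAE 18:3 roots, against 23, 20.6 and 10.7 CPM in DMSO roots (root log2 fold change 1.46, edgeR adjusted p = 0.00242; difference -3.56 ± 0.31 (SE), edgeR adjusted p = 7.24e-08). The opposite split appeared in SUC2, with 1.94, 2.95 and 2.37 CPM in NAE 18:3 roots, against 46.7, 14.2 and 20.0 CPM in DMSO roots (root log2 fold change -3.65, edgeR adjusted p = 5.12e-04; difference 5.35 ± 0.58 (SE), edgeR adjusted p = 9.92e-07), and in IOS1, with 1.3, 15.8 and 6.28 CPM in NAE 18:3 roots, against 99, 69.3 and 74 CPM in DMSO roots (root log2 fold change -3.55, edgeR adjusted p = 0.00175; difference 6.25 ± 0.93 (SE), edgeR adjusted p = 2.96e-05). Both of these transcripts rose in cotyledons and fell in roots.

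Medians of several lists also differed between the organs. Tryptophan-derived defence genes had a median log2 fold change of 0.50 in cotyledons and -0.62 in roots. The log2 fold change was larger in cotyledons for 14 of 25 and smaller for none. GH3 enzymes had medians of 1.03 and -1.62, with 5 of 9 larger. Sugar transporters had medians of 0.50 and -1.14, with 10 of 23 larger. For aquaporins, channels for water, the medians were -0.32 and -2.32, and 15 of 30 had the larger log2 fold change in cotyledons, with a negative median in both organs. Phenylpropanoid and flavonoid genes, reduced in part in cotyledons, had medians of -0.58 and -2.26, and 16 of 33 were called with a larger log2 fold change in cotyledons, again with a negative median in both organs. Among LysM receptors LYK4 had a larger log2 fold change in cotyledons (difference 4.37 ± 0.52 (SE), edgeR adjusted p = 2.48e-06), and LYK5 did not differ by the test (-1.15 ± 0.63 (SE), edgeR adjusted p = 0.155).

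Cotyledons given NAE 18:2 at 40 µM, another dose of another NAE, are set beside these values without a comparison, as they share the DMSO libraries. CYP81D8 had 81.4, 27.1 and 81.3 CPM under NAE 18:2, GSTU9 17.2, 7.12 and 19.4 CPM and AOX1A 253, 93.2 and 189 CPM. NIA1 had 86.9, 239.6 and 191 CPM. WRKY33 had 131, 79.1 and 131 CPM and LYK5 25.2, 23.4 and 27 CPM. By the same rule NAE 18:2 gave 120 increased and 21 reduced genes in cotyledons.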

How the data were processed

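Per the methods of the study, the authors sequenced stranded poly(A) libraries as pairs of 75-base reads, trimmed them with Trimmomatic, aligned them to TAIR10 with STAR and used DESeq2. The deposited values are raw read counts per gene for 32833 genes in 27 libraries. The counting program, annotation and use of strand are not given in the sources used here, so counts of overlapping genes are uncertain. A deposited normalized table was not used.

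Counts were tested with edgeR 4.0.16 in R 4.3.3 (quasi-likelihood, TMM scaling, filterByExpr, robust) over the 9 cotyledon libraries with treatment as the factor. Genes were called at adjusted p under 0.01 and over 2-fold. CPM are scaled by TMM over 27 libraries. The difference between organs is an interaction in 27 libraries. SE is the log2 fold change over the square root of F. The floor is 3 counts in a library. The scripts were tested on simulated data. The replicates are separate cultures only as far as the methods say, and p-values measure the spread between these samples.

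Gene IDs were matched to TAIR10.1 locus tags of RefSeq (32548 of 32833), and promoter sequence is from that build. Gene lists, markers and members were chosen with earlier results of these data known. Genes were named by rank of fold change (8 each way) or of CPM difference (4 each way), as up to 4 called members of a list averaging at least 5 CPM (or the 2 highest where none was called), as genes the study names, or by organ difference (4 each way). Others were chosen after their values were seen: LHY, ABCB11, GSTF7, SCL14, LRR XI-23, GSTU24, MYB51, MYC2, NAC017, NRT1.7, OPR1, NDB4, AT2G21640, SAG13, JAZ7, WRKY33, PEN2, CCA1, PP2CA, TGA6, AOX1B, ERF1, MPK3, LBD38, BCS1, EM1, UGT73C7, GUN4, NYC1, CYP707A1, CYP707A4, PORB, RRTF1, GUN5, AT5G24640, GS2, UPM1, BIP2, RBOHD, CNX1 and ASN2. DESeq2, other scalings, filters, sample sets, the replicate block and leaving out each library were tried as alternatives.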

Additional observations from a re-analysis of the deposited data

Results flagged for a closer look

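For 8 genes with large changes the effect of NAE 18:3 differed between cotyledons and roots by the test of the difference in edgeR. The 4 genes with the most positive differences rose in cotyledons, and in roots 3 of them stood below every DMSO library while the values of LECRKA4.2 overlapped. AT2G45220, a pectin methylesterase gene, had 1.26, 1.31 and 0.688 CPM in NAE 18:3 cotyledons, against 0.121, 0.141 and 0.373 CPM in DMSO cotyledons, while it had 1.64, 2.65 and 1.98 CPM in NAE 18:3 roots, against 165, 77 and 118 CPM in DMSO roots (difference 8.18 ± 0.72 (SE), edgeR adjusted p = 9.77e-08). AT1G51890, a leucine-rich repeat receptor kinase gene, had 1.39, 1.62 and 1.16 CPM in NAE 18:3 cotyledons, against 0.0804, 0.047 and 0.166 CPM in DMSO cotyledons, and 0.447, 1.56 and 0.692 CPM in NAE 18:3 roots, against 27.7, 15.5 and 15.5 CPM in DMSO roots (difference 8.18 ± 0.65 (SE), edgeR adjusted p = 3.47e-08). LECRKA4.2, a lectin receptor kinase, had 18.6, 15.2 and 14.3 CPM in NAE 18:3 cotyledons, against 0.0402, 0.047 and 0.29 CPM in DMSO cotyledons, and 1.38, 6.18 and 4.89 CPM in NAE 18:3 roots, against 6.63, 3.2 and 6.23 CPM in DMSO roots (difference 7.31 ± 1.07 (SE), edgeR adjusted p = 2.58e-05). AT5G50760, a SAUR gene also called SAUR55, had 0.852, 0.989 and 0.86 CPM in NAE 18:3 cotyledons, against 0.201, 0.282 and 0.166 CPM in DMSO cotyledons, and 0.186, 1.02 and 0.0989 CPM in NAE 18:3 roots, against 21.4, 15.3 and 19.5 CPM in DMSO roots (difference 7.41 ± 0.74 (SE), edgeR adjusted p = 4.10e-07). The call of AT2G45220 within cotyledons was lost in 4 of 6 fits that left out 1 library (log2 fold change 2.02 to 3.02).

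The 4 with the most negative differences fell in cotyledons. NIA1, whose root values are given above, had a difference of -4.89 ± 0.50 (SE). AT1G29660, a GDSL lipase gene, had 25, 29.5 and 29.1 CPM in NAE 18:3 cotyledons, against 142, 99.8 and 66.1 CPM in DMSO cotyledons, and 0, 0.034 and 1.33 CPM in NAE 18:3 roots, against 0, 0 and 0.038 CPM in DMSO roots (difference -6.54 ± 1.76 (SE), edgeR adjusted p = 0.00583). GPT2 had 0.335, 0.0679 and 10.5 CPM in NAE 18:3 roots, against 0.173, 0.0906 and 0.266 CPM in DMSO roots (difference -5.6 ± 1.32 (SE), edgeR adjusted p = 0.00216). WOX1, a homeobox gene of leaf blade growth, had 13.3, 10.8 and 12.3 CPM in NAE 18:3 cotyledons, against 23.1, 25.3 and 27.4 CPM in DMSO cotyledons, and 0, 0.102 and 0.198 CPM in NAE 18:3 roots, against 0, 0 and 0 CPM in DMSO roots (difference -5.42 ± 1.28 (SE), edgeR adjusted p = 0.00246). For AT1G29660, GPT2 and WOX1 the highest root library was NAE 18:3 root replicate 3, the one with mesophyll markers at 1130 CPM. Without it their differences were -2.43 (edgeR adjusted p = 0.616), -1.5 (edgeR adjusted p = 0.197) and -4.7 (edgeR adjusted p = 0.0156), none of them called. AT1G29660 and WOX1 were at the counting floor in DMSO roots, so their fitted differences depend on a small added count.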

How the results depend on the processing

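Of the 1715 genes called in cotyledons none reversed direction in any setting run. With all 27 libraries in 9 groups 1253 of these calls were kept. Besides the genes given above for this setting, those that lost their calls in it included AT1G29660, AT2G45220, AT5G50760, CYP707A3, CYP707A4, GPT2, GSTU19, GUN4, NAC6, SERK4 and WAK1. The increased count was 998 to 1391 when single libraries were left out and 1045 to 1480 in the other settings. The reduced count was 281 to 532 when single libraries were left out and 319 to 662 in the other settings, 319 being with all 27 libraries in 9 groups and 662 at an adjusted p under 0.05. DESeq2 called 1437 and 555 genes. In the comparison with roots 1768 to 2213 genes had a larger log2 fold change in cotyledons without single libraries, and 1031 to 1465 a smaller one. Size factors of DESeq2 in edgeR gave 798 of the smaller ones. Upper quartile scaling moved the median of all genes in cotyledons to -0.05. The cause of these shifts was not tested.

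Samples of the 2 groups share replicate numbers but no source gives a shared batch. Same-numbered NAE 18:3 and DMSO cotyledon libraries had correlations of 0.081, 0.130 and 0.117 between their deviations from the group means, and since 0.081 is not over 0.1 the numbers were not taken as pairs, although each library correlated best with its own number. With NAE 18:2 cotyledons, which are also in the fit, the correlations were 0.454, 0.159 and 0.318 for DMSO and 0.156, 0.204 and 0.199 for NAE 18:3. With the replicate block 1272 and 494 genes were called, and 1946 and 1064 in the comparison with roots, and ABI5 and CCA1 gained a call. With 3 libraries a group, changes under 2-fold and genes under the filter are not covered. On simulated counts of the 19444 genes, 45 of 50 genes raised 2.5-fold and 45 of 50 lowered to 0.4 were recovered. These changed genes were drawn from genes averaging at least 50 counts, so recovery at lower counts was not measured. The test of the difference between organs recovered 25 and 30 of 50 such genes.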

Other observations

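Clock and water channel genes were examined besides, with 6.33% of all genes increased. Of 21 clock genes 2 increased and none was reduced (median log2 fold change -0.04). CCA1, a morning factor, had 21.2, 33.6 and 37.9 CPM in NAE 18:3 cotyledons, against 57, 70.7 and 77.6 CPM in DMSO cotyledons (log2 fold change -1.15, edgeR adjusted p = 0.0262), which missed the threshold, although it was called reduced with DESeq2, with only the 6 libraries compared and with the replicate block. LHY, its partner, had 19.8, 34.6 and 40.4 CPM in NAE 18:3 cotyledons, against 44.5, 57 and 65.9 CPM in DMSO cotyledons (log2 fold change -0.82, edgeR adjusted p = 0.0736). Of 28 aquaporins 2 increased (median -0.32).

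Counts of a pair of genes could not be used. MYC2, the main regulator of jasmonate responses, had 0 counts in all 27 libraries, and GUN4, a regulator of magnesium chelatase, had 0.448, 0.317 and 0.516 CPM against 1.05, 1.5 and 0.911 CPM in NAE 18:3 and DMSO cotyledons. Both lie wholly within a gene annotated on the other strand, AT1G32630 and AT3G59410.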
